A study of Mus musculus with 6 samples.

Results

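The dual-specificity MAP kinase phosphatases were taken as the 9 genes Dusp1, Dusp2, Dusp4, Dusp5, Dusp6, Dusp7, Dusp8, Dusp10 and Dusp16, by their annotated symbols, out of 24479 genes measured. Each had 1 row of values on all 6 arrays, and the mean level of each was above the filter set at the 40th percentile. The arrays held RNA of liver sinusoidal endothelial cells (LSECs), the fenestrated endothelium of the liver, enriched with anti-CD146 beads and pooled from 3 mice per array. The tested mice carried the Lyve-1-KO allele B6.129S1-Lyve1tm1Lhua/J, a constitutive knockout present in every cell of the animal, and the Ctrl mice were wild-type C57BL/6J, with 3 arrays in each group and no treatment. The labels give neither age nor sex of the pooled mice, and the methods give an age range for the study as a whole. The methods name both littermates and purchased mice as controls, so for purchased mice origin and genotype cannot be told apart. Values are log2 expression levels, quantile-normalized, with the same distribution on every array from 2.92 to 13.87 and a median of 5.04.

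MAP kinases such as ERK, JNK and p38 are switched on when a kinase above them phosphorylates a threonine and a tyrosine in their activation loop. Dual-specificity MAP kinase phosphatases remove both phosphates and so switch the kinase off. Many of them are transcribed within minutes of MAP kinase activation, which makes them negative feedback regulators, and in endothelium they are known to follow growth factors, inflammatory cytokines and shear stress. By location and preference they fall into nuclear, inducible enzymes (Dusp1, Dusp2, Dusp4, Dusp5), cytoplasmic enzymes directed at ERK (Dusp6, Dusp7) and enzymes directed at JNK and p38 (Dusp8, Dusp10, Dusp16).

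The 9 genes lie on 9 different chromosomes (GRCm38.p6), so they share no locus. The 250 bases upstream of 1 annotated transcription start per gene were matched for 8 of them in RefSeq (GRCm38.p6), all but Dusp4. For Dusp7, Dusp8 and Dusp16 the start used lies 72, 623 and 14435 bases inside the outermost annotated start of the gene, so these windows belong to 1 of several starts. They were searched on both strands for the full cyclic AMP response element (CRE, TGACGTCA), which binds CREB and ATF factors, the AP-1 site (TGAGTCA), the CArG box of serum response factor and the NF-kB site. Only Dusp1, Dusp5 and Dusp8 held any of the 4 motifs, and their sequences are shown for that reason, chosen after the matches and the expression values were known. The capitals mark a CRE in Dusp1 and Dusp8 and a pair of CArG boxes in direct succession in Dusp5.

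Dusp1, chr17:26508473-26508722, minus strand: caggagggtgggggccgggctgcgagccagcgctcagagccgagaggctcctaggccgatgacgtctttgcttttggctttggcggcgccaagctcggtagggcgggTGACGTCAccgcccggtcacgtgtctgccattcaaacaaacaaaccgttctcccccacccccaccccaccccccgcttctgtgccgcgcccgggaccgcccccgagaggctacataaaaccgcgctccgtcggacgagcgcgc
Dusp5, chr19:53528895-53529144, plus strand: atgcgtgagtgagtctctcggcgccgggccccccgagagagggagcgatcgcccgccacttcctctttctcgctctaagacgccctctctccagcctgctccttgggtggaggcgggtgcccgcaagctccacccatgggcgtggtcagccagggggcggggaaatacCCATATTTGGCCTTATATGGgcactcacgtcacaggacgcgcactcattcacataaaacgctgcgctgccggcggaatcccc
Dusp8, chr7:142095285-142095534, minus strand: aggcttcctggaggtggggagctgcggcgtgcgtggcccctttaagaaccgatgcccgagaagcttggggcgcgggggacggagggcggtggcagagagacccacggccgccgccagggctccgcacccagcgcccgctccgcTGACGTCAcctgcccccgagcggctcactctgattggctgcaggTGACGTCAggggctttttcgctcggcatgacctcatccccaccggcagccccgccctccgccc

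The CRE of Dusp1 began at base -143 from the start, those of Dusp8 at -107 and -63, and the CArG boxes of Dusp5 at -82 and -72. Of 32851 upstream windows of the same length, 1.55% held a CRE and 1.47% a CArG box, while 0.0304% held more than 1 CRE and 0.0183% more than 1 CArG box. The AP-1 site and the NF-kB site, found in 4.46% and 3.90% of all windows, were in none of the 8. A match is a description of the letters only.

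**Figure D1:**
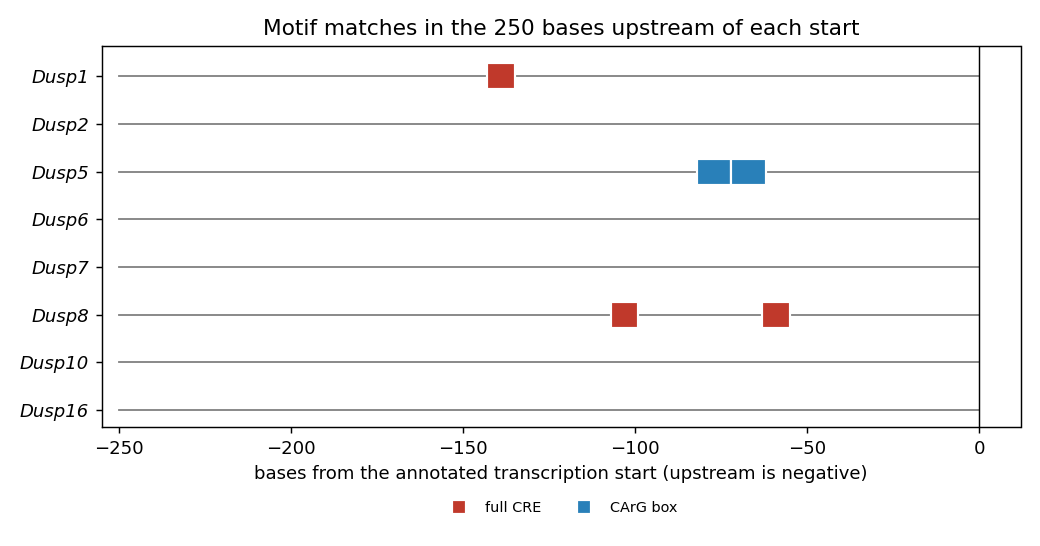
Positions of the motif matches in the 250 bases upstream of 1 annotated transcription start of each of 8 phosphatase genes, with bases from the start on the horizontal axis. The coloured boxes stand for a full CRE (Dusp1, and 2 in Dusp8) and for the 2 adjoining CArG boxes of Dusp5, and the other 5 genes carry none.

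Lyve1 itself, which encodes a hyaluronan receptor, had levels of 12.85, 12.88 and 12.83 in the arrays labelled Lyve-1-KO, against 12.78, 12.69 and 12.84 in the Ctrl arrays. Its signal was therefore not lower under the knockout label, and where its probes lie relative to the deleted part is not analysed here. All directions below therefore follow the label. The 23 LSEC markers had a mean level per array of 12.49 to 12.50 under the knockout label and 12.50 to 12.53 in the Ctrl arrays, so markers of the labelled cell type were present at high levels on every array. Markers of other cells were measured as well, and the scale has no zero. The mean of 14 macrophage markers was 8.87, 9.44 and 9.80 in the arrays labelled Lyve-1-KO against 7.76, 9.66 and 9.07 in the Ctrl arrays, lowest in Ctrl replicate 1. The mean of 11 neutrophil markers was 5.58, 5.05 and 6.33 against 4.93, 5.07 and 5.31 in the same order, highest in Lyve-1-KO replicate 3. The means of macrophage and neutrophil markers overlapped between the groups, as did those of hepatocyte, stellate and lymphocyte markers.

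In the arrays labelled Lyve-1-KO, Dusp5 had the largest difference of the family, at 1.77-fold the Ctrl level, followed by Dusp10 at 1.34-fold, Dusp1 at 1.21-fold and Dusp6 at 1.12-fold. For these 4 genes every array labelled Lyve-1-KO lay above every Ctrl array. The values of Dusp2, Dusp4, Dusp7, Dusp8 and Dusp16 overlapped between the groups. None of the 9 passed limma after Benjamini-Hochberg adjustment over all genes, which called 0.00409% of genes. At an unadjusted p under 0.05, 3 of the 9 (33.3%) were higher and 0 lower, and over all genes 5.87% were higher and 5.33% lower. Higher without overlap were 4 of the 9, against 8.71% of all genes, and lower without overlap 0, against 8.73%. Above 0 were 5 of the 9, against 48.9% of all genes, and the median log2 fold change was 0.16 over the 9 and -0.00374 over all genes. In these pooled preparations a change in the number of cells of a type and a change in RNA per cell cannot be told apart.

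The count of 3 changed when 5 of the 6 arrays were left out in turn. With all arrays the 3 genes were Dusp1, Dusp5 and Dusp6. The count was 2 with Lyve-1-KO replicate 1 left out, namely Dusp1 and Dusp5. It was also 2 with Lyve-1-KO replicate 2 or Ctrl replicate 2 left out, namely Dusp5 and Dusp6. With Ctrl replicate 3 left out it was 3, but with Dusp10 in place of Dusp6. When Lyve-1-KO replicate 3 or Ctrl replicate 1 was left out it was 1, which was Dusp5 in both cases. The median of the 9 was then 0.026 with Lyve-1-KO replicate 3 left out and -0.024 with Ctrl replicate 1 left out. Blocking on the replicate number, 2 of the 9 had an unadjusted p under 0.05 and 0 passed after adjustment.

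**Figure D2:**
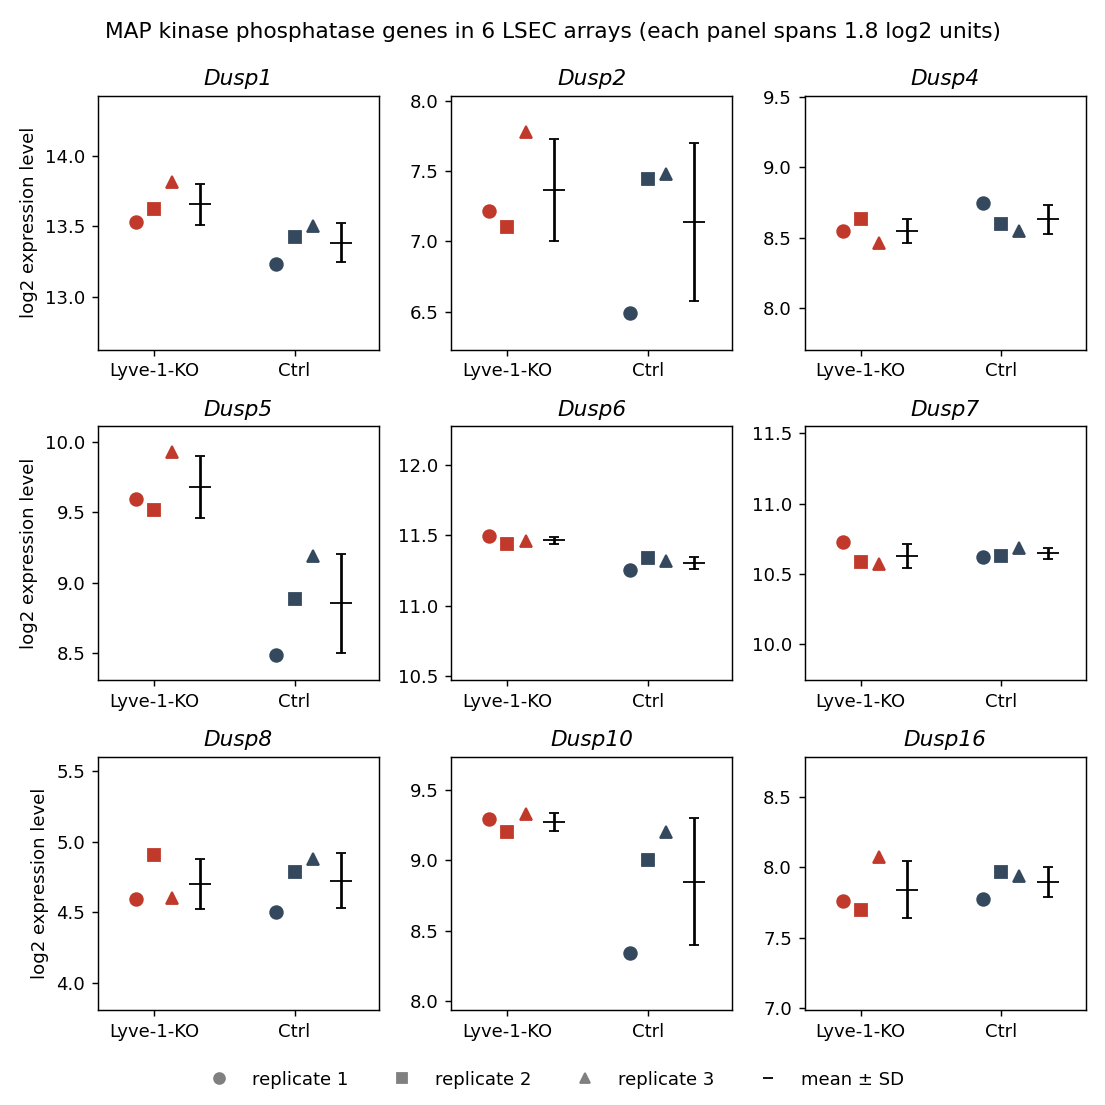
Log2 expression level of the 9 phosphatase genes in the 3 arrays labelled Lyve-1-KO (red, left) and the 3 Ctrl arrays (blue, right), with the symbol giving the replicate number, the bar the mean and SD, and every panel spanning the same number of log2 units. Dusp1, Dusp5, Dusp6 and Dusp10 do not overlap between the groups, and Ctrl replicate 1 (blue circle) is the lowest of 6 arrays for 6 of the 9 genes.

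**Figure D3:**
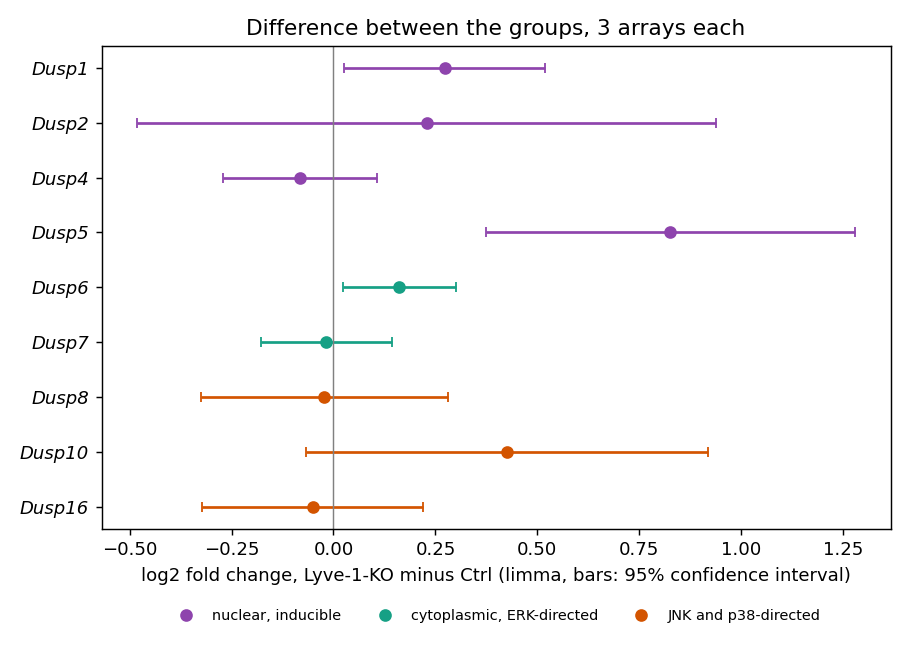
Log2 fold change of each phosphatase gene, arrays labelled Lyve-1-KO minus Ctrl, with its unadjusted 95% confidence interval from limma, coloured by class. The interval lies above 0 for Dusp1, Dusp5 and Dusp6 and spans 0 for the other 6.

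Among the nuclear, inducible enzymes, Dusp5 and Dusp1 did not overlap between the groups. Dusp5 (chromosome 19, protein coding) encodes a phosphatase that is selective for ERK and holds it in the nucleus. It had levels of 9.60, 9.51 and 9.93 in the arrays labelled Lyve-1-KO, against 8.49, 8.88 and 9.19 in the Ctrl arrays. The lowest value under the knockout label thus lay above the highest Ctrl value, and the SDs were 0.22 and 0.35. The log2 fold change was 0.83 with a standard error of 0.19 (95% confidence interval 0.37 to 1.28, unadjusted p = 0.00358, adjusted p = 0.246 from limma), which placed it at rank 355 of all genes by p. An exact permutation test (two-sided) over the 6 arrays gave p = 0.1, which is the smallest p that 3 arrays against 3 allow. Between pools of the same replicate number the difference was 1.11, 0.63 and 0.74. In the fit blocked on that number the unadjusted p was 0.000596 and the adjusted p 0.214, both from limma. Without single arrays the log2 fold change of Dusp5 stayed between 0.64, without Ctrl replicate 1, and 0.99, without Ctrl replicate 3.

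Dusp1 (chromosome 17) encodes the archetypal enzyme of the family, an immediate early gene product that acts on p38, JNK and ERK and is also induced by glucocorticoids. Its levels were 13.53, 13.62 and 13.82 in the arrays labelled Lyve-1-KO, against 13.23, 13.42 and 13.50 in the Ctrl arrays. All 6 values lay just under the top of the array range at 13.87, and an effect of this ceiling on the difference was not tested. The groups were separated by a narrow margin between Lyve-1-KO replicate 1 and Ctrl replicate 3. The log2 fold change was 0.27 with a standard error of 0.10 (95% confidence interval 0.03 to 0.52, unadjusted p = 0.0345, adjusted p = 0.413 from limma). The 3 differences between pools of the same number were 0.30, 0.20 and 0.32, more even than those of Dusp5, and the fit blocked on the replicate number had an unadjusted p of 0.00986 and an adjusted p of 0.323.

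The other nuclear members overlapped between the groups. Dusp2, known from activated leukocytes, had levels of 7.22, 7.10 and 7.78 in the arrays labelled Lyve-1-KO, against 6.49, 7.44 and 7.48 in the Ctrl arrays. Lyve-1-KO replicate 3 was the highest and Ctrl replicate 1 the lowest, as they were for Dusp1, Dusp5 and Dusp10. The log2 fold change of 0.23 (95% confidence interval -0.48 to 0.94, adjusted p = 0.816) had the widest interval of the family and turned to -0.095 without Ctrl replicate 1. Dusp4, a nuclear phosphatase of ERK and JNK, had 8.55, 8.63 and 8.46 in the arrays labelled Lyve-1-KO, against 8.75, 8.59 and 8.55 in the Ctrl arrays. Here Ctrl replicate 1 was the highest array, which was the case for no other member. The log2 fold change was -0.08 (95% confidence interval -0.27 to 0.11, adjusted p = 0.741), so the interval holds no change beyond 1.08-fold upwards or 0.83-fold downwards.

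Of the cytoplasmic phosphatases, Dusp6 (chromosome 10), which is induced by ERK activity itself and returns ERK to the inactive state, had closely grouped values. Its levels were 11.49, 11.44 and 11.46 in the arrays labelled Lyve-1-KO, against 11.25, 11.34 and 11.32 in the Ctrl arrays, with SDs of 0.03 and 0.04. The difference was small but larger than this spread, with a log2 fold change of 0.16 (standard error 0.06, 95% confidence interval 0.02 to 0.30, unadjusted p = 0.0283, adjusted p = 0.393 from limma). In the fit blocked on the replicate number the unadjusted p of Dusp6 was 0.0664. Dusp7, the second cytoplasmic enzyme for ERK, had 10.73, 10.59 and 10.57 in the arrays labelled Lyve-1-KO, against 10.62, 10.63 and 10.69 in the Ctrl arrays. The groups overlapped and the log2 fold change was -0.02 (95% confidence interval -0.18 to 0.14, adjusted p = 0.946). The 2 cytoplasmic genes thus differed in their order of arrays, since Ctrl replicate 1 was the lowest array for Dusp6 and lay inside the range of the knockout label for Dusp7.

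Among the enzymes for JNK and p38, Dusp10 (chromosome 1), which restrains JNK and p38 in immune and stress responses, was the member without overlap. It had levels of 9.295, 9.201 and 9.324 in the arrays labelled Lyve-1-KO, against 8.342, 9.002 and 9.199 in the Ctrl arrays. Ctrl replicate 1 stood far below the others, the groups were separated only in the third decimal, and the SDs were 0.06 and 0.45. The log2 fold change was 0.43 with a standard error of 0.21 (95% confidence interval -0.07 to 0.92, unadjusted p = 0.0799, adjusted p = 0.495 from limma). Without Ctrl replicate 1 it was 0.17, so the size of the difference rested largely on that array. Dusp8, an enzyme best known from brain and heart, had 4.60, 4.90 and 4.60 in the arrays labelled Lyve-1-KO, against 4.50, 4.79 and 4.88 in the Ctrl arrays, all below the array median of 5.04. Its log2 fold change was -0.02 (95% confidence interval -0.33 to 0.28, adjusted p = 0.964). Dusp16, which shuttles between nucleus and cytoplasm and prefers JNK, had 7.76, 7.69 and 8.07 against 7.77, 7.96 and 7.94 in the same order of groups. Both overlapped, and the log2 fold change of Dusp16 was -0.05 (95% confidence interval -0.32 to 0.22, adjusted p = 0.904).

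Across the family the arrays at the ends were the same for several genes. Ctrl replicate 1 was the lowest array for 6 of the 9 genes, while it was the lowest for 16.1% of all genes. Lyve-1-KO replicate 3 was the highest array for 5 of the 9, while it was the highest for 16.6% of all genes. Averaged over the 9, the deviation from the mean of the 6 arrays was 0.05, 0.05 and 0.19 in the arrays labelled Lyve-1-KO, against -0.32, -0.02 and 0.05 in the Ctrl arrays. Ctrl replicate 1 was also lowest for the means of immediate early genes, heat shock genes and macrophage and neutrophil markers, and Lyve-1-KO replicate 3 highest for all 4. Their part in the differences of the phosphatases was not tested. Without Ctrl replicate 1 the median log2 fold change was -0.11 for macrophage markers and 0.29 for neutrophil markers. It was 0.32 for immediate early genes and 0.21 for heat shock genes. In the same fit, which kept Lyve-1-KO replicate 3, Dusp5 had a log2 fold change of 0.64 (unadjusted p = 0.00634). Dusp1 had 0.20 (unadjusted p = 0.104) and Dusp6 0.14 (unadjusted p = 0.0801), all from limma.

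**Figure D4:**
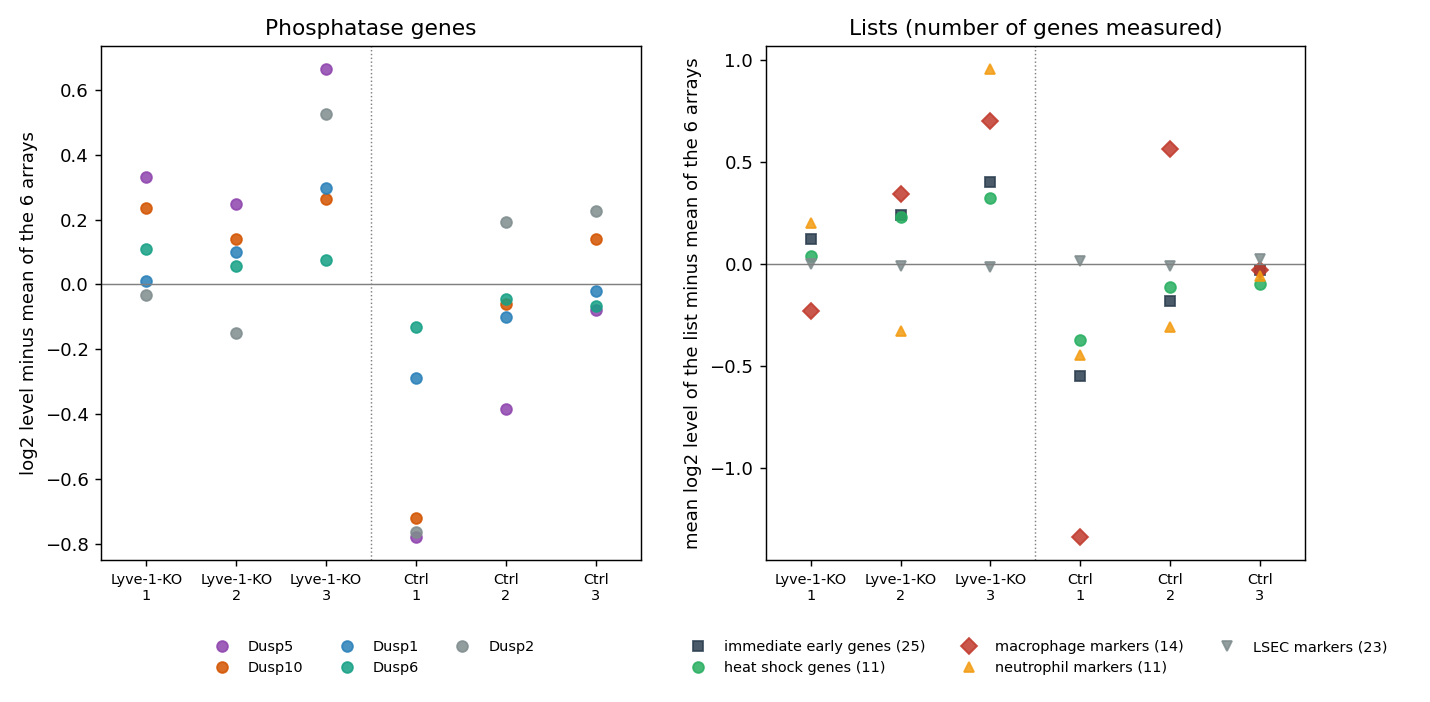
Deviation of each array from the mean of the 6 arrays, in log2 units, for 5 phosphatase genes (left) and for the mean level of 5 gene lists (right), with the arrays labelled Lyve-1-KO left of the dotted line and the Ctrl arrays right of it. Immediate early and heat shock genes lie higher in each Lyve-1-KO array than in any Ctrl array, macrophage markers overlap between the groups, LSEC markers stay near 0, and Ctrl replicate 1 is low for most of what is plotted.

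The core of the MAP kinase cascade showed small differences in both directions. Of 17 measured kinases at its top, 2 lay higher with an unadjusted p under 0.05 and 0 lower, with a median log2 fold change of 0.06. These were Map3k8, which activates the ERK branch downstream of Toll-like and TNF receptors, at 0.54, and Braf, the Ras effector, at 0.18. Of 6 measured MAP kinase kinases 1 was higher and 1 lower (median -0.05). Map2k6, which activates p38, had 7.93, 7.80 and 7.98 in the arrays labelled Lyve-1-KO, against 7.71, 7.52 and 7.55 in the Ctrl arrays. Map2k1, which activates ERK, lay on the other side with 8.71, 8.65 and 8.71 against 8.85, 8.88 and 8.92 in the same order. Neither gene overlapped between the groups, and their log2 fold changes were 0.31 and -0.19 (adjusted p = 0.276 and 0.327 from limma). Of 12 measured MAP kinases 1 was higher, the p38 kinase Mapk12 at 0.16, and 0 lower (median 0.04), and blocking on the replicate number the unadjusted limma p of Mapk12 was 0.0778, which left 0. The count was also 0 when Lyve-1-KO replicate 2, Lyve-1-KO replicate 3, Ctrl replicate 2 or Ctrl replicate 3 was left out. Of 14 measured kinases activated by MAP kinases and their nuclear targets 1 was higher, the ternary complex factor Elk1 at 0.19, and 0 lower (median 0.01). After adjustment over all genes no gene of these 4 lists passed, and 11.2% of all genes had an unadjusted p under 0.05 in either direction.

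Other brakes on the pathway centred near 0. Of 9 measured feedback inhibitors of ERK signalling, 1 lay lower with an unadjusted p under 0.05 and 0 higher (median 0.02). The lower one was Il17rd, an inhibitor of signals from fibroblast growth factor receptors, at -0.29, while Spry4 had 0.17 and Spry2 0.18, both Sprouty proteins that act on receptor tyrosine kinase signals. Of 23 other dual-specificity phosphatases and MAP kinase tyrosine phosphatases, 1 was higher and 2 lower (median 0.04). Ssh1, a cofilin phosphatase, had a log2 fold change of 0.15, and Dusp19 and Dusp28, atypical members, had -0.28 and -0.23. In the blocked fit Ssh1 no longer had an unadjusted p under 0.05 (0.0728 in limma), while Dusp27 at 0.21 and Dusp23 at -0.31 did (0.0290 and 0.0199). None passed after adjustment.

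The lists of ERK output genes, immediate early genes and, as a separate list, heat shock genes had larger medians. These lists are to be read against all genes, of which 5.87% lay higher with an unadjusted p under 0.05 and 48.9% above 0. Of 12 genes of ERK output 5 lay higher with an unadjusted p under 0.05 and 0 lower, with a median log2 fold change of 0.17. Above 0 were 8 of the 12, and 4 lay below 0. Phlda1 had 0.31, the ETS factor Etv1 0.33, Ier3 0.68 and Egr1 0.62. The lists share genes and are not separate evidence. Ier3, Egr1 and Myc are also on the list of immediate early genes, and Spry2 and Spry4 on that of feedback inhibitors. Of 25 measured immediate early genes, all 25 lay above 0 and 21 had an unadjusted p under 0.05, with a median of 0.45. Nr4a3, an orphan nuclear receptor, had levels of 6.89, 6.33 and 7.16 in the arrays labelled Lyve-1-KO, against 4.85, 5.74 and 5.73 in the Ctrl arrays, a log2 fold change of 1.35 (adjusted p = 0.237 from limma). Its relative Nr4a2 had 0.56, and Btg2, an antiproliferative early gene, 0.52. Of 11 measured heat shock genes all 11 lay above 0 and 6 had an unadjusted p under 0.05, with a median of 0.31, led by the cochaperones Hsph1 at 1.05 and Bag3 at 0.74. None of these genes passed over all genes, except that Ier3 did under a trended and robust prior variance (adjusted p = 0.0443 from limma), a setting that called 49 genes in all. With Ctrl replicate 1 left out the count of immediate early genes at an unadjusted p under 0.05 was 12, and with Lyve-1-KO replicate 2 or 3 left out it was 13 or 10, with all 25 above 0 each time. By the methods' test of each gene the count was 7 for immediate early genes and 3 for ERK output.

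**Figure D5:**
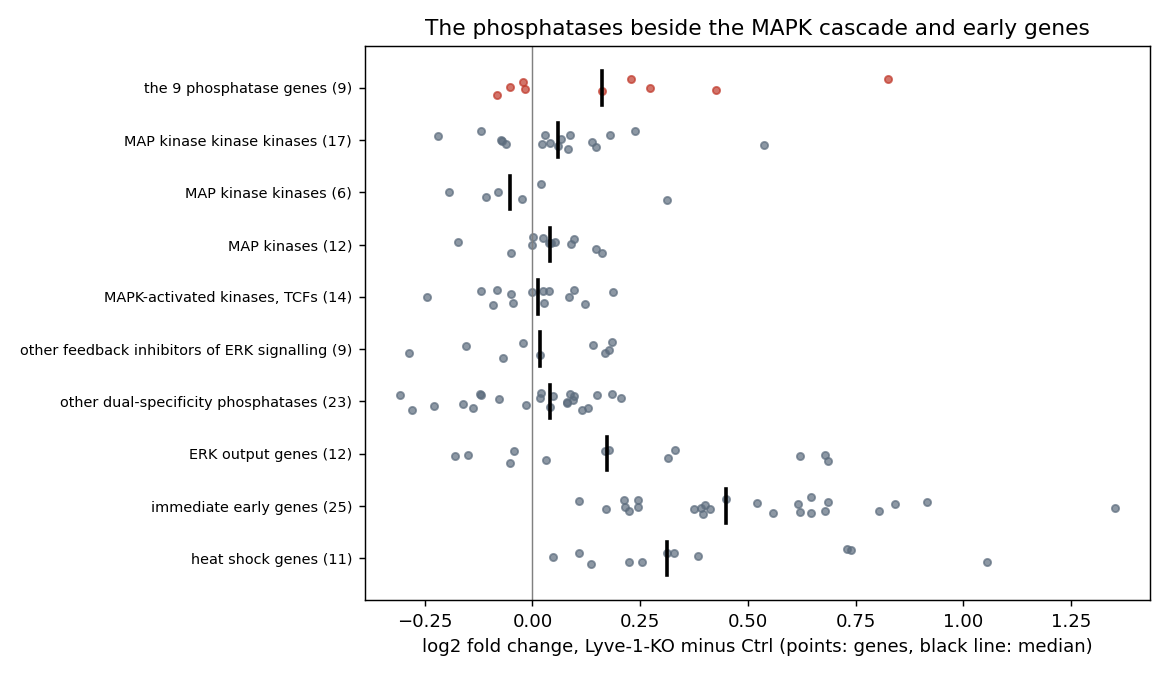
Log2 fold change, arrays labelled Lyve-1-KO minus Ctrl, of the 9 phosphatase genes (red) and of the genes measured in 9 further lists (grey), 1 point per gene with the median as a black line and the number of genes in brackets. The cascade itself centres near 0, while all immediate early and heat shock genes lie above 0 and the phosphatases reach from -0.08 to 0.83.

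The pattern over arrays was followed for Dusp5, whose SD over the 6 arrays of 0.52 was the largest of the family. The 5 named genes closest to it, by the root mean square difference of their median-centred levels over the 6 arrays, were Hbegf at 0.10, Egr1, Nabp1 and the unannotated Gm20199 at 0.13 each, and Mir466d at 0.14. Hbegf, an EGF family ligand that activates ERK, had levels of 10.30, 10.22 and 10.35 in the arrays labelled Lyve-1-KO, against 9.17, 9.46 and 9.73 in the Ctrl arrays. Like Dusp5 it was lowest in Ctrl replicate 1 and highest in Lyve-1-KO replicate 3. With 6 arrays this likeness is a description of these pools.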

How the data were processed

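RNA of LSECs from Lyve-1-KO and Ctrl pools (3 mice each) was measured on MoGene-2_0-st arrays of Affymetrix. The authors defined genes by Entrez identifiers in a custom CDF and applied quantile normalization. The deposited values are log2 levels per gene. The submitters' processing notes list RMA, with no version. Quantile normalization removes any global shift between arrays. Arrays have no read depth, and 3 per group limit the precision. The pools are labelled biological replicates, and p-values measure the spread between pools.

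All 24479 genes were fitted with limma 3.58.1 in R 4.3.3 (lmFit, eBayes), none filtered out, and p-values were adjusted over all of them by Benjamini-Hochberg at a threshold of 0.05. Symbols were assigned to 23281 genes through the platform annotation, and the other 1198 are unnamed here. Single members were also compared by an exact permutation test. The methods name another test per gene with false discovery rate correction, which was run as an alternative and is called the methods' test.

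Deviations of pools with the same replicate number from their group means had correlations over all genes of 0.206, 0.134 and 0.124, whereas different numbers had -0.218 to 0.0432. By these values the numbers were treated as pairing the pools, although no label says so. The correlations are weak and come from the same arrays as the blocked fit. Because deviations within a group cancel out, some of the correlations have to be positive. They therefore cannot show whether the pools were paired, and smaller p-values from the blocked fit are not separate evidence. The comparison without the block is reported, and blocked values are given for results whose calls they change.

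The members and gene lists were chosen with earlier results of these data known. All 9 members are named. From each list up to 4 genes with the smallest unadjusted p were eligible, and for cell type markers the 4 with the highest level. For the member with the largest SD the 5 genes most like it are named. Alternatives were the block, cyclic loess, median centring, a filter on low levels, trended robust variance, array weights, the methods' test and leaving out each array. The fit was tested on simulated data with known changes.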

Additional observations from a re-analysis of the deposited data

How the results depend on the processing

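No member passed after adjustment under any alternative run, with the lowest adjusted p of a member between 0.211 and 0.564. Leaving out single arrays moved the count of members higher at an unadjusted p under 0.05 between 1 and 3 and the median log2 fold change of the 9 between -0.024 and 0.18. The directions of Dusp1, Dusp4, Dusp5, Dusp6 and Dusp10 were the same under every alternative. Those of the other 4 members turned when single arrays were left out, and the cause was not tested. Dusp2, at 0.23 with all arrays, ranged from -0.095 to 0.40 and turned only without Ctrl replicate 1. The log2 fold changes were -0.068 to 0.011 for Dusp7, -0.13 to 0.055 for Dusp8 and -0.17 to 0.023 for Dusp16. With the replicate number as a block, 2 members were higher at an unadjusted p under 0.05 and no call on a member after adjustment changed. Over all lists the block changed the unadjusted call of 17 genes, of which 14 are named with their lists and Map3k13 (0.0376), Gadd45b (0.00670) and Hspe1 (0.0285) passed with the block only. Over all genes the 1 call became 0 with the block, 0 with the methods' test, 49 with a trended and robust variance, and 0 to 2 when single arrays were left out. At an unadjusted p under 0.05 the methods' test had 2 members higher, Dusp5 at 0.0259 and Dusp6 at 0.00574. Cyclic loess and array weights moved the median of the 9 to 0.17 and 0.16. Each value rests on 3 arrays per group.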

Other observations

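Dusp1 is a target of the glucocorticoid receptor, so other glucocorticoid-induced genes were read beside it. Of 13 measured, 4 lay higher under the knockout label with an unadjusted p under 0.05 and 1 lower, with a median log2 fold change of 0.05. This count and those of the lists below are to be read against all genes, of which 5.87% were higher and 5.33% lower. Pdk4, a brake on pyruvate dehydrogenase, had 11.38, 11.53 and 11.43 in the arrays labelled Lyve-1-KO, against 10.79, 10.78 and 10.76 in the Ctrl arrays. Fkbp5, a cochaperone of the receptor and one of its most widely used targets, had a log2 fold change of -0.43. Its levels were 8.90, 9.26 and 8.80 against 9.55, 9.23 and 9.46, which overlapped between the groups. Mt2, a metallothionein, and Nfkbia, an inhibitor of NF-kB, had 0.35 and 0.30. Per array the mean level of this list was 9.95 to 10.15 under the knockout label and 9.78 to 10.09 in the Ctrl arrays, which overlapped. With the replicate number as a block Sgk1, a kinase of ion transport, no longer had an unadjusted p under 0.05 (0.0909 in limma), and under a trended and robust prior variance Pdk4 passed after adjustment (0.00212).

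Of 11 measured Ras proteins, adaptors and exchange factors none had an unadjusted limma p under 0.05 in either direction (median -0.01). Blocking on the replicate number gave 1 of the 11 higher, the exchange factor Rasgrp2 at 0.20 (unadjusted p = 0.0333 in limma). Of the marker lists, 0 of the neutrophil, hepatocyte and stellate markers had an unadjusted p under 0.05, with medians of 0.25, 0.01 and 0.05. The block changed these counts, with 3 neutrophil markers higher (Retnlg at 1.36, S100a9 at 1.32 and S100a8 at 1.23), 1 hepatocyte marker lower (Pck1 at -0.40) and 1 stellate marker higher (Des at 0.31). With Lyve-1-KO replicate 2 left out, 5 neutrophil markers were higher and 1 hepatocyte marker lower. Stellate markers had 1 higher with Lyve-1-KO replicate 1 left out, and 1 higher and 1 lower with Ctrl replicate 2 left out. Among 15 lymphocyte markers 0 were higher and 2 lower (13.3% of the list, median -0.14), the B cell gene Ms4a1 at -0.94 and Cd8a at -0.23. This rested on single arrays, with 6 lower when Ctrl replicate 1 was left out, 3 higher and 0 lower when Ctrl replicate 3 was, 1 lower when Lyve-1-KO replicate 2 was, and none in either direction when Ctrl replicate 2 or Lyve-1-KO replicate 3 was. Blocking on the replicate number left 1 lower, Ms4a1, with Cd8a at an unadjusted limma p of 0.0544. Cd8a had levels of 3.86 to 4.23 on the 6 arrays, all below the array median of 5.04. Under the filter on low levels 11 of the 15 lymphocyte markers remained, with 0 higher, 1 lower and a median of 0.09. Among 23 LSEC markers 1 was higher and 2 lower (median -0.02), with Bmp6 at 0.22, Cd209b at -0.35 and Wnt2 at -0.20. Among 14 macrophage markers 1 was higher and 0 lower (median 0.45), the scavenger receptor Marco, with 8.71, 9.70 and 10.99 in the arrays labelled Lyve-1-KO against 6.33, 8.66 and 7.67 in the Ctrl arrays. The block gave 2 higher, with Cd68 at 0.66 added. With 1 array left out the count of macrophage markers higher was 0 for Ctrl replicate 1 or Lyve-1-KO replicate 3, 2 for Lyve-1-KO replicate 2 and 4 for Ctrl replicate 2.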
